A study of Mus musculus with 12 samples.

Results

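A set of 37 genes for lysosomal hydrolases, lysosomal membrane proteins and their regulators was followed through the islet transcriptomes of 4 groups of mice. The genes were chosen by name, as known components of the lysosome, but with earlier results of these data known. All 37 were found among the 38561 genes of the count table and passed the filter on low counts. By role they were 8 proteases and peptidases, 10 glycosidases, 4 sulfatases, 7 genes of lipid breakdown and cholesterol export, 6 membrane proteins, and the regulators Tfeb and Grn. RNA from hand-picked pancreatic islets of normoglycemic males aged 11 weeks was sequenced in 12 libraries, 1 per mouse and 3 per group. All mice, controls included, were Rag-/- and carried the H2k haplotype. B10 mice had the C57BL/10SnSg background and NOD mice the NOD/LtJ background, each without a transgene or with insHEL (groups B10_insHEL and NOD_insHEL). The insHEL transgene, Tg(ILK3mHEL)3Ccg, drives hen egg lysozyme from an insulin promoter and so acts in beta cells. Mice with the Rag defect have no mature B or T cells, and as a model of NOD islets they lack autoimmune lymphocytes.

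Lysosomes are acidic organelles in which soluble hydrolases break down proteins, glycans, sulfated glycosaminoglycans and lipids delivered by endocytosis and autophagy. Most hydrolases are made in the endoplasmic reticulum, tagged with mannose 6-phosphate and carried to the lysosome by receptors, while glycosylated membrane proteins such as LAMP1 and LAMP2 line its limiting membrane. In beta cells lysosomes also take up and degrade insulin granules. TFEB, a basic helix-loop-helix transcription factor held in the cytoplasm by mTORC1, is known to bind E-box-containing CLEAR elements in promoters of many lysosomal genes.

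That element is shown here because it is the best known sequence feature that lysosomal genes share. RefSeq promoter windows (GRCm38.p6, from 250 bases before to 50 bases after a gene's start) were at hand for 34 of the 37 genes. The E-box CACGTG was present in 12 of the 34 windows (35.3%) and in 8.09% of all 27025 genes with a window. The 8 central bases of the CLEAR element, TCACGTGA, which contain that E-box, were present in 4 of the 34 (11.8%: Ctsa, Ctsd, Gla and Mcoln1) and in 1.12% of all genes. Both motifs are their own reverse complement, so that both strands were searched at once. The stretches below run 5′ to 3′ on the strand of the gene, capitals mark TCACGTGA or, in Lamp1, CACGTG, and the last 3 belong to genes with large strain differences whose windows hold neither motif.
Ctsa, chr2:164833749-164833772, plus strand, 24 bases before the start: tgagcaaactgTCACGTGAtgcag
Ctsd, chr7:142387908-142387937, minus strand: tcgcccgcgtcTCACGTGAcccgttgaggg
Mcoln1, chr8:3500462-3500491, plus strand: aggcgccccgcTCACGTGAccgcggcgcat
Gla, distal copy, chrX:134601215-134601244, minus strand: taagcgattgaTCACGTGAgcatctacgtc
Gla, proximal copy, chrX:134601182-134601211, minus strand: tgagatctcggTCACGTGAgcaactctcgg
Lamp1, chr8:13159099-13159158, plus strand: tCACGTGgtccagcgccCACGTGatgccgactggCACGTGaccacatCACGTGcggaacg
Man2b1, chr8:85083209-85083268, plus strand: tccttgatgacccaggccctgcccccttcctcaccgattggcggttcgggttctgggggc
Tpp1, chr7:105752236-105752295, minus strand: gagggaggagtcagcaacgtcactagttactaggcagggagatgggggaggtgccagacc
Ctsz, chr2:174439040-174439099, minus strand: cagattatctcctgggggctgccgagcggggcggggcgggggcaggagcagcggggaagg

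Library totals ranged from 2212062 counts (NOD_insHEL replicate 3) to 21138456 counts (B10 replicate 2). Nothing in the labels says whether mice of a group shared a litter, so that p-values measure only the spread between the samples at hand. That spread was taken within groups and estimated over all groups together. The labels give the B10 samples numbers above 100 and the other 9 samples numbers from 1 to 29, so a difference tied to that numbering cannot be told apart from the B10 group. Only NOD_insHEL against B10_insHEL and NOD_insHEL against NOD lie within 1 run of numbers. Expression of beta cell genes marked all libraries as islets. Levels are given in CPM (counts divided by TMM-scaled library totals). The 13 beta cell markers summed to 185710 to 206930 CPM in B10 and 207120 to 275470 in B10_insHEL. Their sum was 255970 to 263360 CPM in NOD and 263720 to 295660 in NOD_insHEL, so that the B10 libraries lay below all others. Acinar markers separated the libraries: the summed level of 20 genes was 3657 to 4601 CPM in B10 and 2586 CPM in B10_insHEL replicate 2, but 193 and 206 CPM in the other B10_insHEL libraries, 209 to 349 CPM in NOD and 152 to 194 CPM in NOD_insHEL. Of these genes Amy2a5 was at 0 in every library and Ptf1a in those of NOD and NOD_insHEL. The 16 macrophage markers, none at 0, summed to 168 to 222 CPM in B10, 224 to 281 in B10_insHEL, 163 to 237 in NOD and 199 to 252 in NOD_insHEL. In bulk RNA, fewer cells of a type and less RNA per cell cannot be told apart.

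The 37 genes together held 0.604, 0.610 and 0.629% of all counts in B10 and 0.501, 0.498 and 0.498% in B10_insHEL. In NOD they held 0.495, 0.463 and 0.465%, and in NOD_insHEL 0.462, 0.491 and 0.415%. The 3 B10 libraries thus stood above the other 9. Per kilobase of exon, prosaposin (Psap), the precursor of the saposins that present glycolipids to hydrolases, was the most abundant transcript at 343 CPM per kb (mean of 12 libraries, range 277 to 416). It was followed by Lamp1 at 221 (181 to 259) and the aspartyl protease gene Ctsd at 121 (98.3 to 138). Ids reached 91.0 CPM per kb, Asah1 82.5 and Hexa 69.9. At the other end stood the galactosylceramidase gene Galc at 2.17 CPM per kb, the cation channel gene Mcoln3 at 1.31 and Tfeb at 0.728 (0.304 to 1.08). In this order of 37 genes 34 of the 36 neighbouring pairs had overlapping ranges over the 12 libraries. Only the ranges of Psap and Lamp1, and of Lamp1 and Ctsd, did not overlap. Neighbours were not compared within single libraries.

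**Figure D1:**
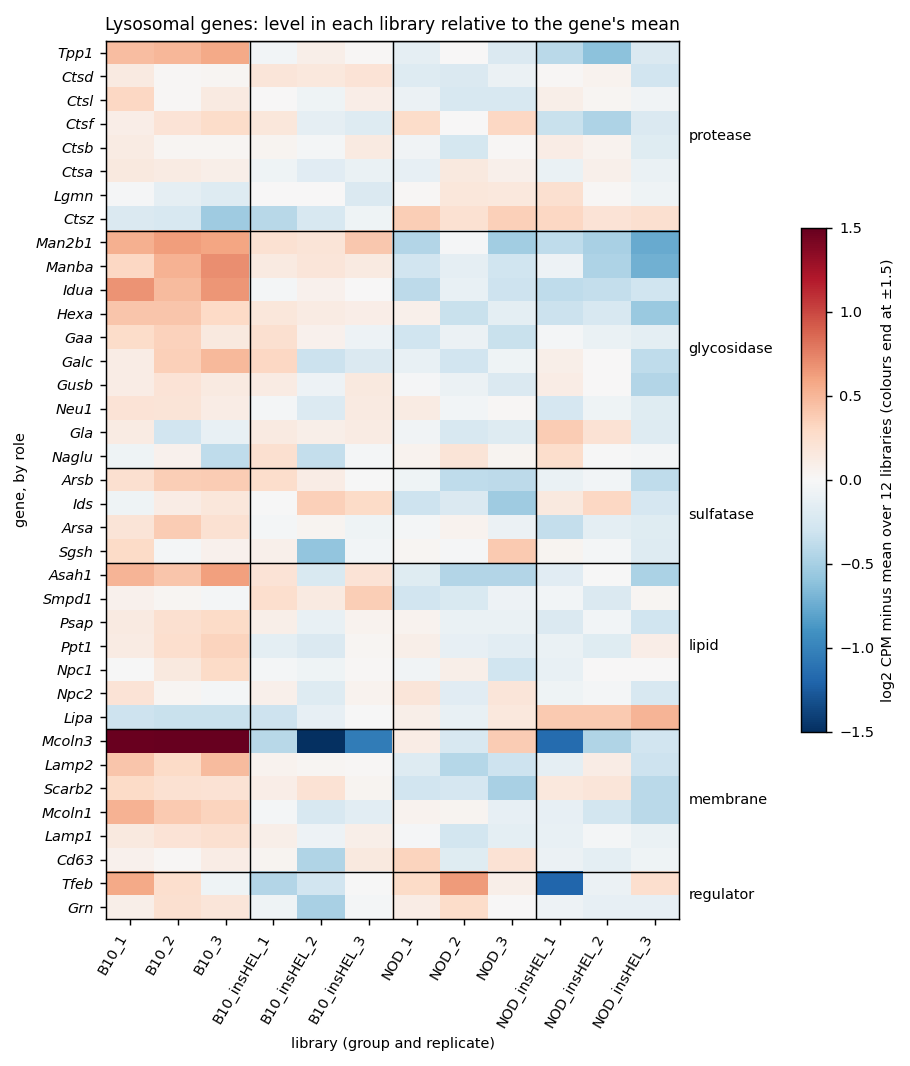
Heat map of the 37 lysosomal genes (rows, grouped by role and ordered by strain difference) in the 12 libraries (columns, 4 groups of 3). Colour gives log2 CPM minus the gene's mean over the 12 libraries, with red above and blue below it. The B10 columns are mostly red, Ctsz and Lipa run the other way, and Mcoln3 has the widest range, from 1.04 to 12.1 CPM.

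Lysosomal genes were more often lower than higher in NOD islets. With strain averaged over the transgene (6 NOD libraries against 6 B10 libraries), 18 of the 37 genes were lower in NOD, 2 were higher (Ctsz and Lipa) and 17 did not pass the test. Genes called lower thus made up 48.6% of the set, against 17.6% of all 15352 genes tested, and genes called in either direction 54.1%, against 33.3%. The median log2 difference was -0.23, against 0.01 for all genes, and 29 of the 37 differences were negative. All 6 NOD values lay below all 6 B10 values for 5 genes (Man2b1, Hexa, Manba, Idua and Arsb), where 6.4% of all genes did so, and above them for Ctsz, where 4.92% did. Adjusted p-values come from edgeR's quasi-likelihood test with Benjamini-Hochberg adjustment over all genes tested, with a threshold of 0.05, and log2 differences are NOD minus B10. With the acinar score as a covariate 12 of the 37 were lower and 8.04% of all genes, and with the number of picked islets 12 and 13.9%. Within groups the acinar score varied mostly through B10_insHEL replicate 2 (6.71, against 2.03 and 1.29 in replicates 1 and 3). That library therefore weighs most in every fit with this score. Of the 20 calls 10 were kept in all 21 alternative analyses: Man2b1, Manba, Idua, Hexa, Tpp1, Asah1, Lamp2, Arsb, Ctsz and Lipa. None of these analyses left out the whole B10 group, whose sample numbers stand apart. Between NOD_insHEL and B10_insHEL Idua, Asah1, Lamp2 and Arsb were not called.

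Glycosidases remove sugars from glycoproteins, glycolipids and glycosaminoglycans, and 5 of the 10 were lower in NOD (Man2b1, Manba, Idua, Hexa and Gaa). Man2b1 (chromosome 8, 85083270 to 85098282), the lysosomal alpha-mannosidase, had 71.3, 75.9 and 74.3 CPM in B10 and 57.6, 56.3 and 64.9 CPM in B10_insHEL. Its values were 36.3, 48.3 and 34.3 CPM in NOD and 37.8, 35.1 and 29.1 CPM in NOD_insHEL. The strains did not overlap, and the averaged log2 difference of -0.84 (SE 0.09, adjusted p = 5.84e-07), a 1.78-fold reduction, was the most negative of the set. It was -0.78 (SE 0.13, adjusted p = 3.75e-04) with the transgene and -0.89 (SE 0.13, adjusted p = 3e-05) without it.

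Manba (chromosome 3, 135485611 to 135571404), the beta-mannosidase that acts after Man2b1 in the breakdown of N-glycans, followed the same order of groups. It had 34.4, 39.8 and 45.1 CPM in B10, 30.6, 31.4 and 30.5 in B10_insHEL, 22.7, 25.3 and 22.6 in NOD, and 26.3, 20.2 and 16.9 in NOD_insHEL. The averaged log2 difference was -0.62 (SE 0.10, adjusted p = 8.92e-05), and it was -0.75 (adjusted p = 4.89e-04) without the transgene. With the transgene it was -0.49 (SE 0.15, adjusted p = 0.0340), a call that was lost without any 1 of the 3 B10_insHEL libraries or without NOD_insHEL replicate 2 or 3 (adjusted p between 0.0540 and 0.136). The strains did not overlap in either pair of groups.

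Hexa (chromosome 9, 59539540 to 59565109), the alpha subunit of beta-hexosaminidase, which degrades GM2 ganglioside, had 182, 183 and 167 CPM in B10 and 153, 149 and 146 CPM in B10_insHEL. In NOD it had 144, 108 and 124 CPM and in NOD_insHEL 109, 115 and 92.5 CPM, so that every NOD library was below every B10 library. The log2 difference was -0.49 (SE 0.08, adjusted p = 8.54e-05) on average, -0.49 (adjusted p = 0.00717) with the transgene and -0.50 (adjusted p = 0.00256) without. An antisense gene, Tmem202, overlaps 255 bases of its exons, and the strand setting of the counting is not given in the sources used here.

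Idua (chromosome 5, 108660331 to 108684557) encodes alpha-L-iduronidase, which trims dermatan and heparan sulfate. The B10 libraries, at 34.3, 29.6 and 33.9 CPM, were above B10_insHEL at 21.0, 22.4 and 21.5 CPM. NOD (16.4, 19.8 and 17.3 CPM) and NOD_insHEL (16.4, 16.8 and 17.4 CPM) lay lower still and overlapped each other. The averaged difference was -0.62 (SE 0.09, adjusted p = 4e-05), made up of -0.87 (adjusted p = 4.57e-05) without the transgene and -0.37 (SE 0.14, adjusted p = 0.0933) with it, where the groups did not overlap but the test was not passed. Exons of Dgkq and Slc26a1 on the other strand cover 265 bases of Idua.

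Gaa, the acid alpha-glucosidase that degrades glycogen, had 154 to 177 CPM in B10, 132 to 165 in B10_insHEL, 111 to 131 in NOD and 126 to 136 in NOD_insHEL. It was lower on average (-0.33, SE 0.08, adjusted p = 0.00218) and without the transgene (-0.50, adjusted p = 0.00193). Once the acinar score was a covariate these differences were -0.32 and -0.47 and missed the threshold (adjusted p = 0.0579 and 0.0790). Galc, which removes galactose from galactosylceramide, was lower in the comparison without the transgene (-0.48, SE 0.16, adjusted p = 0.0250) and had -0.24 (adjusted p = 0.113) on average. The call for Galc was lost without B10 replicate 2 or 3 or NOD replicate 2 (adjusted p of 0.0618, 0.0989 and 0.103). It was also lost with the number of islets as a covariate (-0.25, adjusted p = 0.333). The remaining glycosidases, Gusb, Neu1, Gla and Naglu, had averaged differences from -0.19 (Gusb, adjusted p = 0.0966) to 0.18 (Naglu, adjusted p = 0.244) and were called in no strain comparison.

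Of the 8 proteases and peptidases 2 were lower on average (Tpp1 and Ctsd), 1 was higher (Ctsz) and 5 did not pass. Tpp1 (chromosome 7, 105744811 to 105752235), a tripeptidyl peptidase, had 99.2, 100.9 and 106 CPM in B10 and 69.9, 76.5 and 72.7 CPM in B10_insHEL. It had 65.2, 71.9 and 61.6 CPM in NOD and 54.3, 46.7 and 61.5 CPM in NOD_insHEL. B10 stood apart from the rest, and B10_insHEL overlapped NOD but not NOD_insHEL. The strain difference was -0.54 (SE 0.08, adjusted p = 2.26e-05) on average, -0.62 (adjusted p = 2.49e-04) without the transgene and -0.45 (SE 0.11, adjusted p = 0.0107) with it. The last was lost without NOD_insHEL replicate 2, after thinning and with only the 2 groups in the fit (adjusted p of 0.0839, 0.117 and 0.0556). Without the transgene the value was -0.51 once the acinar score was a covariate (adjusted p = 0.0513).

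Ctsz (chromosome 2, 174427493 to 174439039), the carboxypeptidase cathepsin Z, went the other way. Its level was 43.7, 42.9 and 35 CPM in B10 and 37.9, 43.1 and 48.7 CPM in B10_insHEL. In NOD it was 65.3, 59.5 and 65.1 CPM, and in NOD_insHEL 63.2, 58.3 and 60.1 CPM. All 6 NOD libraries were above all 6 B10 libraries, the 2 groups of a strain overlapped, and the averaged log2 difference was 0.56 (SE 0.08, adjusted p = 2.81e-05), or 1.48-fold. It was 0.64 (adjusted p = 3.80e-04) without the transgene and 0.49 (SE 0.12, adjusted p = 0.00971) with it, the latter lost without NOD_insHEL replicate 1 (adjusted p = 0.0556).

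Ctsd, the main aspartyl protease of the lysosome, had 310, 286 and 289 CPM in B10, 320, 315 and 326 in B10_insHEL, 246, 243 and 266 in NOD, and 286, 294 and 231 in NOD_insHEL. The averaged difference of -0.23 (SE 0.07, adjusted p = 0.0188) passed, whereas -0.24 (adjusted p = 0.150) with the transgene and -0.23 (adjusted p = 0.105) without it did not, although the groups overlapped in neither pair. With the acinar score as a covariate the averaged difference was -0.26 and missed the threshold (adjusted p = 0.110). After thinning to the shallowest library it was -0.22 (adjusted p = 0.0506). A predicted gene on the same strand, Gm49369, shares 808 bases with the exons of Ctsd.

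Ctsb, a cysteine protease with broad specificity, stayed in 1 range, with 299, 278 and 278 CPM in B10, 282, 268 and 299 in B10_insHEL, 262, 228 and 277 in NOD, and 294, 284 and 240 in NOD_insHEL (averaged -0.10, SE 0.08, adjusted p = 0.316). Ctsl, another cysteine protease, had -0.16 (adjusted p = 0.0888) on average and was lower without the transgene (-0.34, SE 0.10, adjusted p = 0.0166). That call was lost without B10 replicate 1 or NOD replicate 2 or 3 (adjusted p of 0.0928, 0.0640 and 0.0693). Antisense and same-strand genes overlap 1742 and 395 bases of its exons. The serine carboxypeptidase Ctsa, the cysteine protease Ctsf and the asparaginyl endopeptidase Lgmn, which cuts after asparagine, had averaged differences of -0.0023, -0.15 and 0.19, with adjusted p of 0.984, 0.209 and 0.114.

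Sulfatases remove sulfate groups so that glycosaminoglycans and sulfatides can be taken apart, and 3 of the 4 were lower on average. Arsb (chromosome 13, 93771630 to 93943016), which acts on dermatan and chondroitin sulfate, had 125, 138 and 139 CPM in B10 and 128, 115 and 106 in B10_insHEL. It had 101.8, 81.6 and 81.1 CPM in NOD and 99.8, 103 and 81.7 CPM in NOD_insHEL. No NOD library reached the lowest B10 library, and the difference was -0.44 (SE 0.08, adjusted p = 3.91e-04) on average, -0.60 (adjusted p = 7.45e-04) without and -0.28 (adjusted p = 0.139) with the transgene. Predicted genes overlap 2411 bases of its exons on the other strand. Ids, the iduronate-2-sulfatase, ranged from 438 to 583 CPM in the B10 and B10_insHEL libraries and from 315 to 567 CPM in those of NOD and NOD_insHEL. It had -0.28 (adjusted p = 0.0315) and Arsa, the sulfatide-degrading arylsulfatase A, -0.25 (adjusted p = 0.0200). Once the acinar score was a covariate the values were -0.21 for each and missed the threshold (adjusted p = 0.355 and 0.251). Both calls were also lost without B10 replicate 2 (0.0562 and 0.0537), Ids also without B10 replicate 3, B10_insHEL replicate 2 or 3, NOD replicate 3 or NOD_insHEL replicate 3 (between 0.0577 and 0.0943) and Arsa without NOD_insHEL replicate 1 (0.0707). After thinning the call for Arsa was lost too (-0.28, adjusted p = 0.0849). Sgsh, a heparan sulfatase, had 0.07 (adjusted p = 0.699).

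Among the 7 genes of lipid breakdown and cholesterol export, Asah1, Smpd1 and Psap were lower on average and Lipa was higher. Asah1 (chromosome 8, 41340197 to 41374773), the acid ceramidase, had 386, 360 and 416 CPM in B10 and 311, 231 and 312 CPM in B10_insHEL. NOD had 239, 200 and 199 CPM and NOD_insHEL 240, 269 and 194 CPM. B10 was above all other libraries, while B10_insHEL replicate 2 fell within the NOD range. The difference was -0.57 (SE 0.09, adjusted p = 9.53e-05) on average and -0.86 (SE 0.13, adjusted p = 7.35e-05) without the transgene, and -0.27 (adjusted p = 0.203) with it.

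Lipa (chromosome 19, 34492318 to 34527474), the acid lipase that frees cholesterol from its esters, had 18.3, 18.0 and 18.0 CPM in B10 and 18.3, 20.8 and 22.6 CPM in B10_insHEL. It had 24, 21 and 25.3 CPM in NOD and 29.9, 29.7 and 32.4 CPM in NOD_insHEL. B10_insHEL and NOD overlapped, and within each transgene state every NOD library was above every B10 library. The difference was 0.47 (SE 0.09, adjusted p = 6.41e-04) on average and 0.57 (SE 0.14, adjusted p = 0.00757) with the transgene. The latter call was lost after thinning (0.63, adjusted p = 0.0722). Without the transgene the value of 0.37 (SE 0.13, adjusted p = 0.0370) was lost without any 1 of the B10 libraries or without NOD replicate 1 or 3 (adjusted p between 0.0813 and 0.140).

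Smpd1, the acid sphingomyelinase, had 74.8 to 79.6 CPM in B10 and 83.3 to 98.3 in B10_insHEL, against 62.3 to 72.4 in NOD and 65.7 to 77.9 in NOD_insHEL. Smpd1 and Psap had averaged differences of -0.27 (adjusted p = 0.00818) and -0.23 (adjusted p = 0.0228). The call for Smpd1 was lost after thinning to the shallowest library (-0.16, adjusted p = 0.197). For Psap the call was lost without B10 replicate 3, NOD replicate 2 or NOD replicate 3 (adjusted p of 0.0510, 0.0504 and 0.0575). With the number of islets as a covariate Psap had -0.16 and missed the threshold (adjusted p = 0.19). Ppt1, which removes palmitate from proteins, was called without the transgene (-0.30, SE 0.11, adjusted p = 0.0461) and not on average (-0.13, adjusted p = 0.223), and its call was lost without B10 replicate 2 or 3 or NOD replicate 2 or 3 (adjusted p between 0.0888 and 0.167). It was also lost with the number of islets as a covariate (-0.18, adjusted p = 0.361). Npc1, the membrane protein through which cholesterol leaves the lysosome, had 36.9, 41.2 and 45.1 CPM in B10, 36.4, 35.6 and 37.7 in B10_insHEL, 35.8, 39.3 and 30.1 in NOD, and 34.4, 37.3 and 37.1 in NOD_insHEL. The strains overlapped throughout (averaged -0.12, SE 0.09, adjusted p = 0.314). Npc2, the soluble protein that hands cholesterol to Npc1, had -0.04 (adjusted p = 0.731).

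Of the 6 membrane genes 5 were lower on average and Cd63, a tetraspanin, was not called (0.02, adjusted p = 0.908). Lamp2, a major glycoprotein of the limiting membrane that is needed for autophagosome clearance, had 403, 369 and 420 CPM in B10 and 313, 310 and 308 CPM in B10_insHEL. It had 265, 225 and 244 CPM in NOD and 276, 327 and 245 CPM in NOD_insHEL. Only B10 stood apart from all other libraries. The difference was -0.42 (SE 0.08, adjusted p = 3.81e-04) on average and -0.70 (SE 0.11, adjusted p = 9.98e-05) without the transgene, and -0.13 (adjusted p = 0.504) with it.

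Lamp1, its close relative, had 649, 677 and 692 CPM in B10, 627, 555 and 624 in B10_insHEL, 581, 485 and 529 in NOD, and 543, 576 and 547 in NOD_insHEL. B10 and NOD did not overlap, whereas B10_insHEL replicate 2 fell among the NOD_insHEL libraries. The difference of -0.23 (SE 0.07, adjusted p = 0.0189) on average was lost without NOD replicate 2 (adjusted p = 0.0561), and that of -0.34 (adjusted p = 0.0166) without the transgene was lost without B10 replicate 3 or NOD replicate 2 or 3 (0.0537, 0.0869 and 0.0569). With the number of islets as a covariate the values were -0.16 and -0.23 and missed the threshold (adjusted p = 0.17 and 0.18). Exons of the antisense gene Grtp1 cover 249 bases of Lamp1. Scarb2, the receptor that carries glucocerebrosidase to lysosomes, had 126 to 132 CPM in B10, 111 to 126 in B10_insHEL, 77.5 to 91.0 in NOD and 81.7 to 123 in NOD_insHEL. It had -0.34 (adjusted p = 0.00601) on average and -0.58 (adjusted p = 0.00182) without the transgene, and -0.27 and -0.48 once the acinar score was a covariate, where both missed the threshold (adjusted p = 0.167 and 0.117).

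The mucolipins are cation channels of lysosomes and endosomes. Mcoln1 (TRPML1), the calcium-releasing channel of the lysosome, had 37.2, 34.1 and 32.8 CPM in B10, 25.5, 22.1 and 23.3 in B10_insHEL, 27.0, 26.8 and 23.9 in NOD, and 24, 21.5 and 19.7 in NOD_insHEL. Its averaged strain difference of -0.26 (SE 0.09, adjusted p = 0.0335) was lost without any 1 of 5 libraries (adjusted p between 0.0596 and 0.0840). That call was also lost with the number of islets (-0.27, adjusted p = 0.0789) or the acinar score (-0.32, adjusted p = 0.119) as a covariate. The macrophage score (-0.25, adjusted p = 0.0537) and thinning (-0.28, adjusted p = 0.15) removed it as well. Mcoln3 (TRPML3; chromosome 3, 146117450 to 146141806) had 9.54, 9.82 and 12.1 CPM in B10, 2.58, 1.04 and 1.65 in B10_insHEL, 3.72, 2.91 and 4.46 in NOD, and 1.53, 2.51 and 2.82 in NOD_insHEL. The 3 B10 libraries stood above the other 9, whose values rest on 6 to 45 counts. Its difference of -1.53 (SE 0.27, adjusted p = 2.89e-04) without the transgene was the most negative of the set in that comparison, with it the value was 0.28 (SE 0.38, adjusted p = 0.692), and the averaged call (-0.62, SE 0.23, adjusted p = 0.0434) was lost in 12 of 21 alternatives.

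Neither regulator was called for strain. Tfeb had 5.85, 4.69 and 3.75 CPM in B10, 2.90, 3.22 and 3.92 in B10_insHEL, 4.79, 6.10 and 4.18 in NOD, and 1.73, 3.69 and 4.70 in NOD_insHEL. Its difference of -0.04 on average carried an SE of 0.22 (adjusted p = 0.917), and all groups overlapped except B10_insHEL with NOD. Grn, the progranulin gene, whose product is cut into granulins inside lysosomes, had 71.3, 78.9 and 75.9 CPM in B10, 64.1, 48.0 and 65.9 in B10_insHEL, 72.3, 81.5 and 67.4 in NOD, and 63.8, 61.5 and 61.5 in NOD_insHEL (averaged 0.02, SE 0.09, adjusted p = 0.868). The genes whose log2 CPM ran most like that of Tfeb over the 12 libraries were Neu1 (Pearson r 0.58), Arsa (0.56) and Ctsa (0.52), and after the group means were removed r was 0.36, 0.55 and 0.27. Those that ran most against Tfeb were Gla (-0.70), Ctsb (-0.45) and Ids (-0.44), with -0.49, -0.50 and -0.18 after that removal. The largest r by size after the removal was -0.80, for Manba. These libraries share depth and groups, and r is a description.

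**Figure D2:**
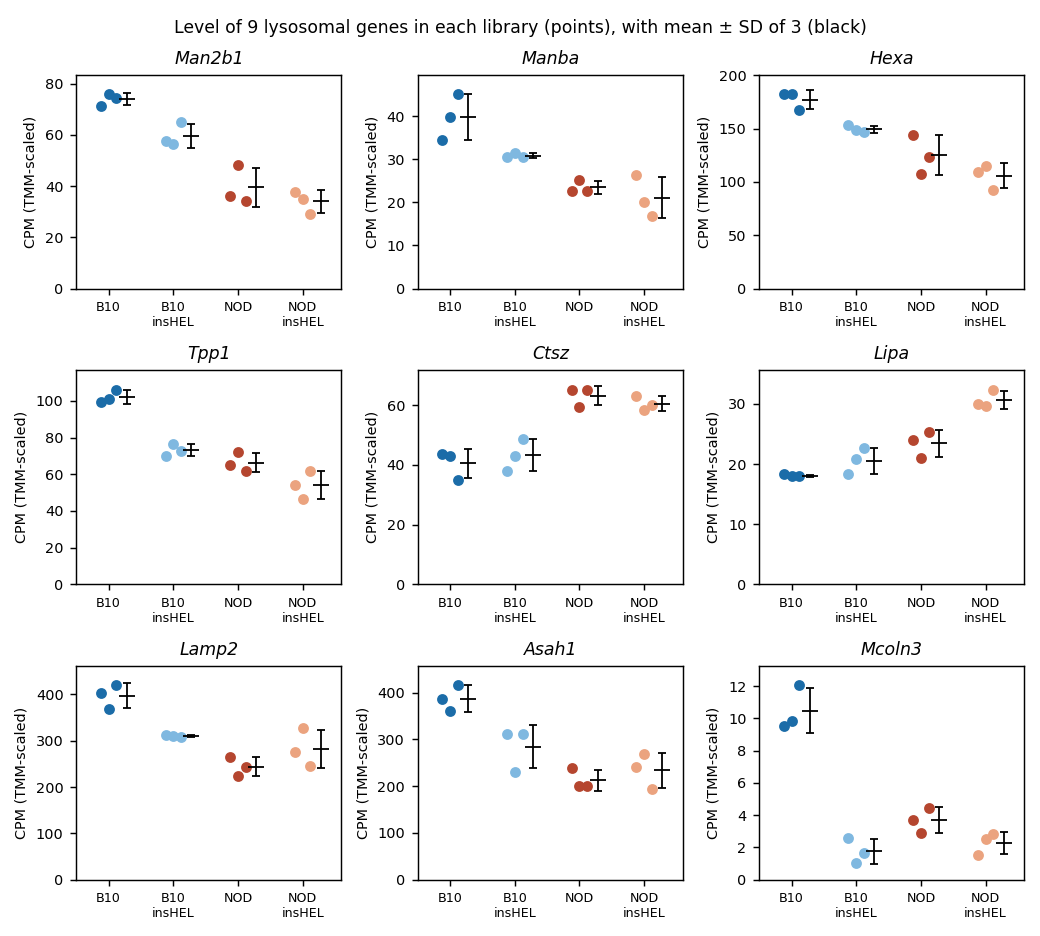
Level in CPM (linear axis from 0) of 9 lysosomal genes in each library. Points are single mice, and the black bar gives mean ± SD of the 3 mice of a group. Man2b1, Manba and Hexa separate the strains, Ctsz is higher in NOD, and for Mcoln3 only the B10 libraries exceed 4.46 CPM.

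The strain difference was then taken apart by transgene state, in comparisons that share no library. Between NOD and B10 without the transgene 17 of 37 genes were lower and 2 higher, while 14.9 and 13.5% of all genes were called in those directions (28.4% in all). Between NOD_insHEL and B10_insHEL 4 were lower and 2 higher, where the shares over all genes were 6.5 and 5.55% (12.1% in all). The median difference was -0.27 and -0.12, respectively. The groups did not overlap for 23 genes lower and 3 higher without the transgene (23.8% of all genes in each direction) and for 10 lower and 2 higher with it (14.2 and 12.8% of all genes). Man2b1, Manba, Tpp1, Hexa, Ctsz and Lipa were called in both comparisons, with the same direction. By role, 5 of 6 membrane genes (all but Cd63) were called lower without the transgene, whereas with it the differences of the 6 ran from -0.13 to 0.28, with adjusted p from 0.504 (Lamp2) to 0.907 (Cd63). Without the transgene, 10 of the 37 were lower with the acinar score as a covariate and 4.47% of all genes, and 11 and 9.63% with the number of islets. With the acinar score 7 of the lower calls and that of Lipa missed the threshold (adjusted p between 0.0513 and 0.372), with values of -0.45 for Ctsl, -0.32 for Ids, -0.51 for Mcoln1, -0.43 for Ppt1 and 0.35 for Lipa, beside those given for Gaa, Scarb2 and Tpp1. With the transgene 2 were lower without NOD_insHEL replicate 2.

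**Figure D3:**
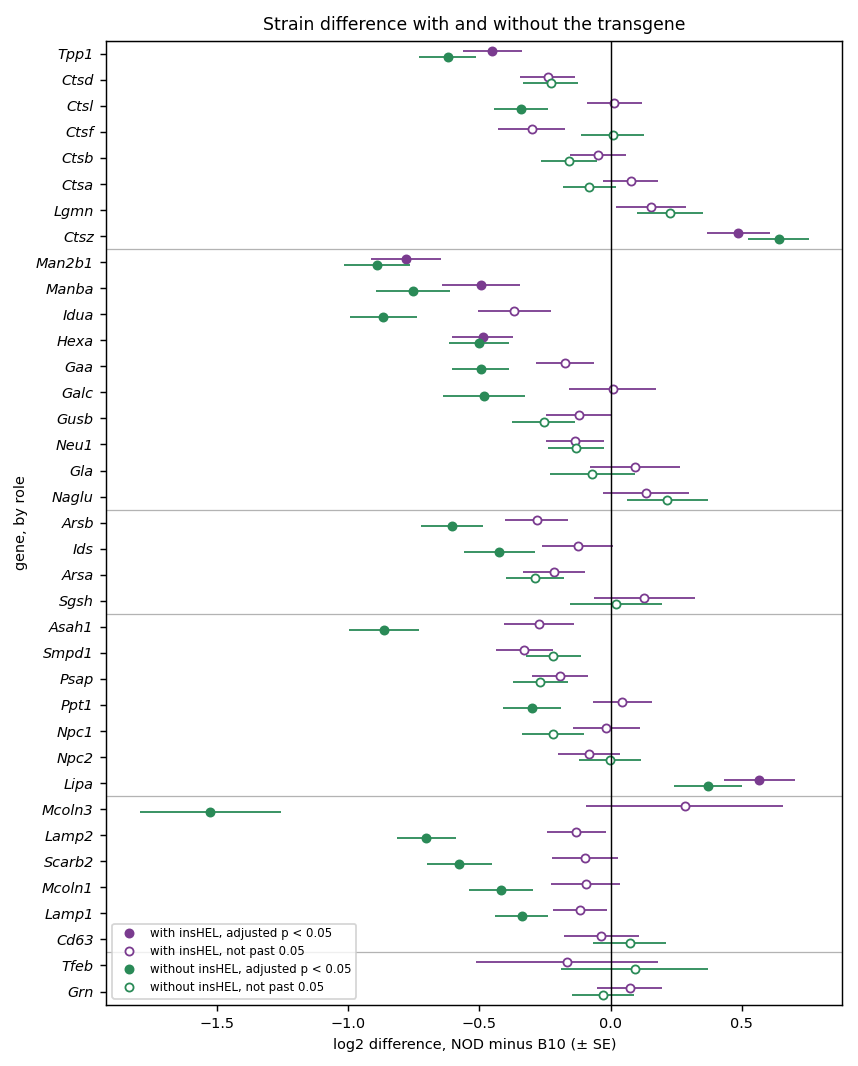
Log2 difference of NOD minus B10 (x axis, ± SE) for each of the 37 genes (y axis, by role), with insHEL (purple) and without it (green). Filled symbols passed an adjusted p of 0.05. Both symbols are filled and on 1 side for Man2b1, Manba, Tpp1, Hexa, Ctsz and Lipa, and among membrane genes only green symbols are filled.

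The transgene itself went with lower levels of 5 of 37 genes in B10 islets, Mcoln3, Idua, Mcoln1, Tpp1 and Asah1 (2.76% of all genes were called lower, 4.09% higher and 6.85% in all). With edgeR no lysosomal gene was called higher, 1 was higher and 14 lower at an unadjusted p under 0.05 (21.8% of all genes had such a p), and DESeq2 called 0 higher and 7 lower. The median difference of the set was -0.21, and in 15 genes all B10_insHEL libraries were below all B10 libraries (13.5% of all genes). Mcoln3, with the values given above, differed by -2.59 (SE 0.30, adjusted p = 4.73e-05), a 6.02-fold reduction, the most negative of the 37. The other differences were -0.59 for Idua (SE 0.13, adjusted p = 0.00685), -0.56 for Mcoln1 (SE 0.12, adjusted p = 0.00896), -0.48 for Tpp1 (SE 0.11, adjusted p = 0.00939) and -0.45 for Asah1 (SE 0.13, adjusted p = 0.0459). That for Asah1 was lost without any 1 of the 3 B10 libraries or B10_insHEL replicate 2 or 3 (adjusted p between 0.0576 and 0.166), and that for Mcoln1 without B10 replicate 1 (0.0587). Asah1 also missed the threshold with the number of islets (-0.34, adjusted p = 0.173) or the macrophage score (-0.43, adjusted p = 0.0689) as a covariate. After thinning Idua (-0.49, adjusted p = 0.165) and Mcoln1 (-0.44, adjusted p = 0.215) missed the threshold.

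Acinar markers moved with this comparison too, least so in B10_insHEL replicate 2. For 17 of the 18 tested, all B10_insHEL libraries were below all B10 libraries, where 13.5% of all genes did so. Of the 18, edgeR called 0 (3 lower at an unadjusted p under 0.05, 1 by DESeq2). In B10_insHEL replicate 2, with 2586 CPM of acinar transcripts, Mcoln3 had its lowest value of all libraries (1.04 CPM, from 12 counts) and Mcoln1 the lowest of its group (22.1 CPM). Idua (22.4 CPM) and Tpp1 (76.5 CPM) were below the B10 libraries there. These are values of 1 library and only describe it. Once the acinar score was a covariate the differences were -0.51 for Idua, -0.65 for Mcoln1 and -0.37 for Tpp1 and missed the threshold (adjusted p of 0.257, 0.107 and 0.323), while Mcoln3 and Asah1 passed. In that fit 0.677% of all genes were called lower. Its adjustment rests mostly on B10_insHEL replicate 2, the library in which the score departs most from its group. The part of acinar RNA in these differences was not tested beyond this covariate. Whatever the sample numbers stand for cannot be told apart from the transgene here.

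In NOD islets the transgene went with 1 call of 37, lower Ctsf (7.06% of all genes were called, 3.18% lower and 3.88% higher), and the median difference was -0.02. Ctsf, a cysteine cathepsin, had 59.9, 49.9 and 61.2 CPM in NOD and 39.4, 35.9 and 42.7 CPM in NOD_insHEL, without overlap, and 53.1, 56.8 and 59.8 CPM in B10 against 55.8, 45.1 and 43.1 CPM in B10_insHEL, which overlapped. The difference in NOD was -0.55 (SE 0.13, adjusted p = 0.0154) and was lost without NOD replicate 3 or NOD_insHEL replicate 1 or 2 (adjusted p of 0.0643, 0.0778 and 0.1). In edgeR 4 genes were higher and 4 lower at an unadjusted p under 0.05 (23.5% of all genes had such a p), and DESeq2 called 1 higher and 1 lower. Mcoln3 had -0.78 (SE 0.34, adjusted p = 0.172) here, with no overlap between the groups.

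**Figure D4:**
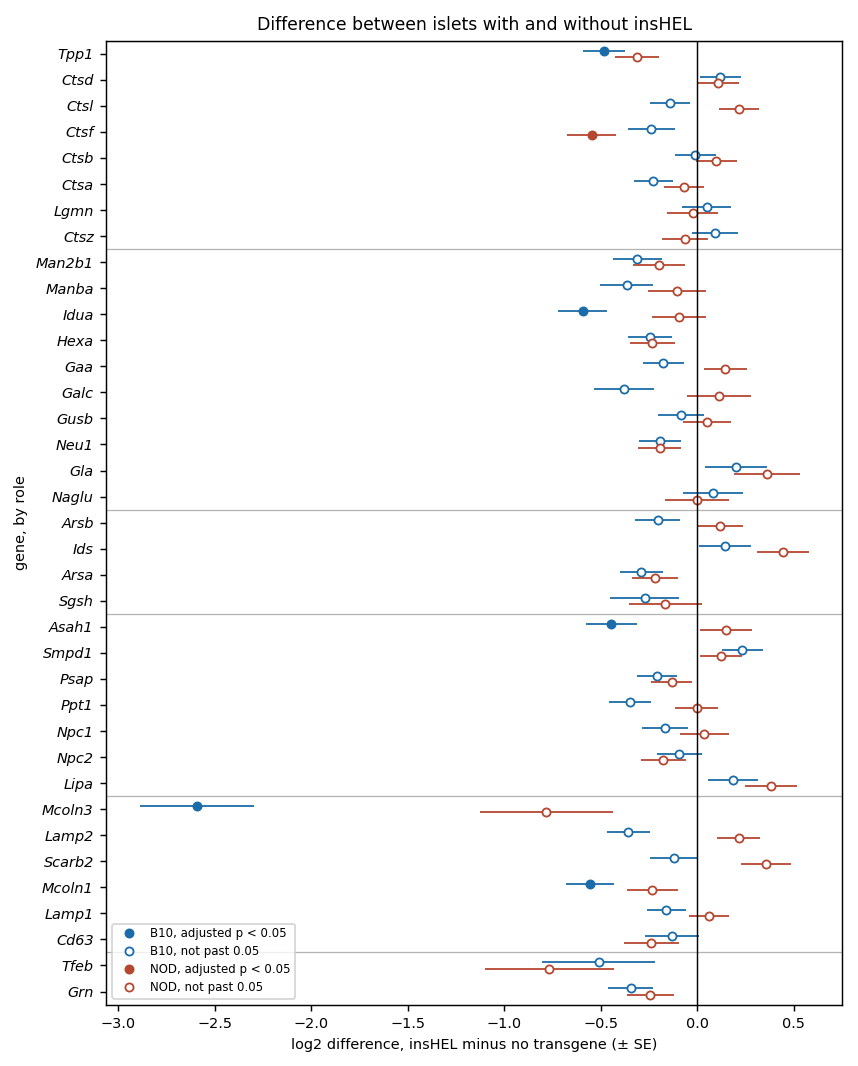
Log2 difference of islets with insHEL minus islets without it (x axis, ± SE) for the 37 genes (y axis, by role), in B10 (blue) and NOD (red). Filled symbols passed an adjusted p of 0.05. Mcoln3, Idua, Mcoln1, Tpp1 and Asah1 are filled in B10 and Ctsf in NOD, and Mcoln3 in B10 lies at -2.59.

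The difference between the transgene effects in the 2 strains was tested as an interaction. In edgeR 0 of 37 genes passed (0.0586% of all genes did), and 9 had an unadjusted p under 0.05 (12.2% of all genes): Mcoln3, Asah1, Lamp2, Idua, Galc, Scarb2, Ctsl, Ppt1 and Gaa. In all 9 the value was positive, so that the level with insHEL relative to that without was higher in NOD than in B10. Mcoln3 had the largest interaction at 1.81 (SE 0.46, adjusted p = 0.163), followed by Asah1 at 0.59 (SE 0.19, adjusted p = 0.241) and Lamp2 at 0.57 (SE 0.16, adjusted p = 0.181). DESeq2 called Mcoln3 and Lamp2 (adjusted p = 0.0443 and 0.0359). The set's fewer calls with the transgene than without it are therefore a difference in counts that edgeR's interaction test did not show for any single gene.

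Calls fell on genes with and without an E-box match. Of the 12 genes with CACGTG in the promoter window 5 were lower on average in NOD, with a median difference of -0.16, and of the 22 without it 12 were lower and 2 higher, with a median of -0.26. Of the 4 genes with TCACGTGA, Ctsd and Mcoln1 were lower, and Ctsa and Gla were not called. Man2b1, Tpp1 and Ctsz, whose stretches are printed above, have neither motif in their windows. A match describes letters and not binding.

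Other genes of the pathway gave a mixed picture in the same averaged comparison. Of 31 other hydrolases 9 were lower and 3 higher (median -0.13). The lowest was Glb1, the acid beta-galactosidase, with 33.1, 38.3 and 38.0 CPM in B10, 41.7, 33.1 and 38.7 in B10_insHEL, 15.8, 15.1 and 16.6 in NOD, and 17.6, 12.7 and 18.3 in NOD_insHEL. Its strains did not overlap (-1.23, SE 0.10, adjusted p = 1.45e-08), and Glb1 thus differed by more than any of the 37 in this comparison. Scpep1, a serine carboxypeptidase, was higher at 0.87 (SE 0.08, adjusted p = 1.98e-08), as was Dnase2a, the acid DNase, at 0.78 (SE 0.12, adjusted p = 3.87e-05), while the carboxypeptidase Prcp (-0.66) and the sialate esterase Siae (-0.59) were lower.

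Of 30 other membrane proteins tested 10 were lower and 4 higher (median -0.13), among them Cln3, a membrane protein mutated in a neuronal ceroid lipofuscinosis, at -0.77 (adjusted p = 2.97e-05) and the hematopoietic gene Laptm5 at 0.76 (adjusted p = 1.94e-04). Of the 19 proton pump genes tested 9 were lower and 2 higher (median -0.18), with Atp6v0e2 at -0.70 (adjusted p = 1.04e-06). In the sorting machinery 6 of 20 were lower and 2 higher (median -0.08), led by Igf2r, the cation-independent mannose 6-phosphate receptor, at -0.72 (SE 0.11, adjusted p = 5.69e-05). It had 142, 161 and 163 CPM in B10, 122, 155 and 116 in B10_insHEL, 81.8, 86.9 and 75.5 in NOD, and 102.4, 106 and 62.0 in NOD_insHEL, again without overlap of the strains.

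Among 24 genes of TFE factors and mTORC1 control 6 were lower and 0 higher by edgeR (8 and 1 at an unadjusted p under 0.05, 6 and 0 by DESeq2), with a median of -0.13. Rragd, a GTPase that links amino acids to mTORC1 and to the control of TFE factors, had 110, 123 and 128 CPM in B10, 70.1, 85.2 and 72.4 in B10_insHEL, 65.3, 43.5 and 49.5 in NOD, and 40.4, 46.0 and 41.3 in NOD_insHEL. The strains did not overlap, and the difference was -1.01 (SE 0.10, adjusted p = 6.90e-08). Of 35 autophagy genes 8 were lower and 2 higher (median -0.05), and of 22 tethering and fusion genes 6 were lower and 1 higher (median -0.14). Every one of these 7 lists had more genes lower than higher, as did the 37 genes and all genes tested (17.6 and 15.7%). In either direction 25% of the TFE and mTORC1 list, 28.6% of autophagy and 31.8% of fusion genes were called, below the 33.3% of all genes. The other shares were 38.7% for hydrolases, 40% for sorting, 46.7% for membrane proteins and 57.9% for the proton pump. Taken by direction, the share called lower was above the 17.6% of all genes in each of the 7 lists. The share called higher was below the 15.7% of all genes in each.

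**Figure D5:**
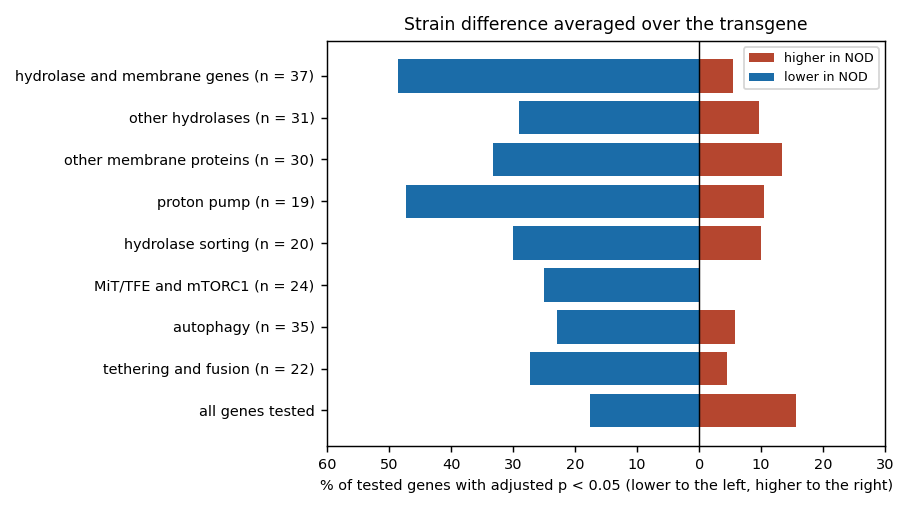
Share of tested genes (x axis, %) called lower (blue, to the left) or higher (red, to the right) in NOD, with strain averaged over the transgene, for the 37 genes, 7 lists of other lysosomal genes and all genes tested (y axis). The 37 genes reach 48.6% lower, against 17.6% of all genes.

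Macrophages are rich in lysosomes, and their markers were looked at beside these results. On average 4 of the 16 macrophage markers were higher in NOD (Cx3cr1, Aif1, Cd14 and Fcgr1) and 2 lower (Mrc1 and Fcer1g). That is 37.5% of the list, near the 33.3% of all genes (15.7% higher and 17.6% lower). Between NOD_insHEL and B10_insHEL edgeR called 0 of them (5 at an unadjusted p under 0.05, 0 by DESeq2) and 12.1% of all genes. With the macrophage score as a covariate 16 of the 37 genes were lower in NOD and 15.8% of all genes. Of 18 acinar genes tested 17 were lower in NOD on average, as were 17.6% of all genes. Between NOD_insHEL and B10_insHEL edgeR called 0 of the 18 (10 lower at an unadjusted p under 0.05, 7 by DESeq2). Without B10_insHEL replicate 2 and NOD_insHEL replicate 3 together, the acinar-rich and the shallowest library, a fit added after the data were seen, Man2b1, Tpp1, Hexa, Ctsz and Lipa kept their calls between NOD_insHEL and B10_insHEL (adjusted p between 0.00225 and 0.0493) and Manba did not (-0.39, adjusted p = 0.171). Of 12 endothelial markers 9 were higher and 1 lower in NOD on average (15.7 and 17.6% of all genes). Between NOD and B10 11 were higher (13.5% of all genes), and between NOD_insHEL and B10_insHEL 2 were lower (6.5%). With insHEL in NOD 7 of the 12 were lower (3.18% of all genes), and in B10 1 was higher (4.09%). For the interaction all 12 values were negative with an unadjusted p under 0.05 (12.2% of all genes), 1 of them past the threshold (0.0586%). The part of these cell types in the lysosomal differences was not tested beyond these covariates.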

How the data were processed

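The authors deposited unnormalized read counts, whole numbers by Ensembl gene identifier with a column for each library. Per the submitters' processing notes the tools were cutadapt, TopHat2 2.0.8b, HTSeq and DESeq, and the build was GRCm38. The annotation release and the strand setting of the counting are not given in the sources used here. Islets were freed by collagenase with inhibitors of transcription present, and a kit for stranded mRNA was used, per the labels' protocols. Symbols and coordinates were added by identifier from GENCODE vM21 (36723 of 38561 genes, 99.8% of counts).

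Counts were tested in R 4.3.3 with edgeR 4.0.16 (filterByExpr, 15352 genes, TMM, robust quasi-likelihood F-tests, two-sided) in 1 fit of 4 group means to the 12 libraries, tested on simulated data first. Standard errors are the log2 difference divided by the square root of F. CPM are TMM-scaled. The chi-square per degree of freedom between libraries of a group was at least 4.63, so none was a duplicate.

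Alternatives were size factors and the Wald test of DESeq2 1.42.0, no filter, a replicate term, 3 covariates (log2 number of islets, acinar and macrophage scores, the mean log2 CPM of each list), thinning to 2212062 counts, only the groups compared, and each library left out. Library values are given for the called genes with the largest strain differences (up to 8 in each direction), those called for insHEL, the largest interaction, and Tfeb, Mcoln1, Lamp1, Lamp2, Ctsd, Ctsb, Grn and Npc1. From other lists up to 3 genes a direction were eligible. The 37 genes and the lists were chosen with earlier results of these data known.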

Additional observations from a re-analysis of the deposited data

How the results depend on the processing

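With strain averaged over the transgene, the number of lysosomal genes lower in NOD was 15 to 18 when single libraries were left out and 12 to 18 under the other alternatives, and 2 were higher when single libraries were left out. Between NOD_insHEL and B10_insHEL 1 gene was higher after thinning to the shallowest library, and 2 were lower after thinning or with only the 2 groups in the fit. Leaving out single libraries gave 1 to 2 higher (1 without NOD_insHEL replicate 1) and 2 to 4 lower. Between NOD and B10 1 gene was higher with no filter, after thinning, and with islet number, the acinar score or the macrophage score as a covariate, and 11 (islet number) or 10 (acinar score) were lower. Leaving out single libraries gave 1 to 2 higher and 12 to 18 lower. For insHEL in B10, 8 genes were lower with no filter and 3 with the acinar score or after thinning, and single libraries left out gave 0 higher and 3 to 6 lower (3 without B10 replicate 1). For insHEL in NOD 1 gene was higher with no filter, with the replicate block, with the acinar score, with only the 2 groups and in DESeq2, while single libraries left out gave 0 to 2 higher and 0 to 2 lower (2 of each without NOD_insHEL replicate 3). For the interaction 2 genes passed with no filter, 1 with the acinar score and 2 in DESeq2, each higher, and 0 without any single library. The cause of these changes was not tested.

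Replicate numbers did not pair the libraries: of 18 pairs of libraries with the same number 0 had a correlation of residuals above 0.1 (from -0.095 to 0.080, other pairs from -0.101 to 0.119). With the replicate block 17 genes were lower and 2 higher for strain on average. Directions that turned all belonged to genes without a call or to Atp6v1f, a proton pump subunit. Grn had -0.18 with the acinar score, -0.042 without both B10_insHEL replicate 2 and NOD_insHEL replicate 3, and -0.045 to 0.062 without single libraries (below 0 without B10_insHEL replicate 2 or NOD replicate 2). Npc1 had 0.0057 after thinning. Tfeb had 0.088 after thinning and -0.16 to 0.18 without single libraries (above 0 without B10 replicate 1, B10_insHEL replicate 3, NOD replicate 3 or NOD_insHEL replicate 1). Atp6v1f had 0.32 (adjusted p = 0.0283) and -0.0051 with the acinar score. Depth limits Mcoln3 and Tfeb most, with as few as 6 and 10 counts in a library.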
